A study of Mus musculus with 14 samples.

Results

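The arrays compared here are 2 of mouse Th1 cells carrying a retrovirus and taken at 12 h, set against 2 of mouse Th1 cells given a small interfering RNA (siRNA). They were chosen by their titles and are 4 of the 14 arrays of the series, 2 a side. The 12 h side holds 1 array of cells infected with the empty vector and 1 of cells infected with a vector for a dominant negative (DN) form of Trpm4, both labelled as stimulated for 12 hours. The siRNA side holds 1 array of cells given Thy1 siRNA and 1 of cells given Trpm4 siRNA, with no time and no stimulation on their labels. Trpm4 is a cation channel opened by calcium inside the cell, and Thy1 is a surface protein of mouse T cells. All cells were T cells polarised to Th1 in culture for 2 weeks. The other arrays are 1 of untreated Th1 cells, 2 of Th1 cells with a retrovirus at 4 h and 7 of Th2 cells. The sources used here give no strain, sex or number of animals, nor do they say whether the arrays of a side come from separate cultures.

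Every difference below is 12 h retrovirus minus siRNA. The retrovirus, the stimulation at a stated time and the transfection of siRNA differ together between the sides and cannot be told apart. Transcripts linked to the X and Y chromosomes also differed, as given below. A difference in the sex of the animals, which is not stated, cannot be told apart from these either. Each side pairs a control array with an array in which Trpm4 was inhibited, so the spread within a side holds any effect of Trpm4 as well as technical error. The p-values measure that spread and not the spread between animals.

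Th1 cells, a class of helper cell, secrete interferon gamma and help macrophages kill microbes inside cells. When the T cell receptor is engaged, calcium enters the cell, the factor NFAT moves to the nucleus, and cytokine genes are switched on within hours along with genes that later damp the signal. Cells that go on to divide switch on genes of DNA replication and mitosis, while genes that hold resting cells in circulation fall.

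Levels are given as log2 of the normalised signal plus 16, called log2 signal here, on which the lowest possible value is 4 and the median probe set is at 5.39. A difference of 1 is about 2-fold for a bright probe set, and differences of dim probe sets are understated. Where a side averaged below the median probe set, the log2 difference is given and no fold. A difference was called when its Benjamini-Hochberg adjusted p in limma, over all 24572 probe sets tested, was under 0.05. For each gene 1 probe set is quoted, the one with the highest mean over the 4 arrays.

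The targeted genes were read first. Trpm4 had a log2 signal of 6.62 in the vector array and 9.21 in the DN Trpm4 array, against 6.95 with Thy1 siRNA and 6.23 with Trpm4 siRNA. Its level was therefore highest where DN Trpm4 was carried and lowest under its own siRNA. The sources used here do not say whether the probe set reads the construct. Thy1 had 12.03 and 12.04 in the vector and DN Trpm4 arrays, against 11.12 with Thy1 siRNA and 12.46 with Trpm4 siRNA. Neither difference between the sides was called (1.33, adjusted p = 0.218 for Trpm4, and 0.25, adjusted p = 0.644 for Thy1, in limma), and both genes are left out of the ranked genes.

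Ifng and Tbx21, 2 defining markers of Th1 cells, had signal well above the median probe set on both sides. Ifng, the gene of interferon gamma, was at 13.41 and 13.41 in the 12 h arrays, against 13.36 and 13.36 in the siRNA arrays, near the highest value of 13.71 that any probe set took on these arrays. The difference was 0.05 (standard error 0.09, adjusted p = 0.674), and at that height a difference may be hard to see. Tbx21, the master factor of Th1 cells, had 9.84 and 9.78 at 12 h, against 8.79 and 8.73 with siRNA, and was called higher by 1.05 (standard error 0.10, adjusted p = 0.00053). Summed signal over the 15 Th1 markers on the array was 32868 and 32514 at 12 h, against 28464 and 28992 with siRNA. The list was not uniform: 9 of the 15 were called higher (60.0%) and 2 lower (13.3%), against 18.7% and 32.1% of all genes. The 2 called lower were Hlx, with 5.45 and 5.18 against 6.97 and 7.26, and Stat4 (-0.72).

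The sides differed widely. Of 24572 probe sets, 13080 were called (53.2%). Of all tested, 6168 were called higher (25.1%) and 6912 lower (28.1%). At 2-fold or more 19.2% were called, of which 2713 were higher (11%) and 2011 lower (8.18%). Without scaling between arrays the split was 4949 higher and 9522 lower, and with median centring 5033 and 9163. The median of all probe sets was -0.21 and -0.19 in these settings, against -0.05 after quantile normalisation. The median absolute difference was 0.12 between the 12 h arrays and 0.13 between the siRNA arrays, against 0.39 between the sides. At 2-fold or more these settings gave 2316 higher and 2548 lower, and 2377 and 2470, so which direction had more such probe sets depended on the scaling. Over 11449 genes with 1 probe set each, 50.9% were called. Of these genes, 2144 (18.7%) were called higher and 3679 (32.1%) lower, and the median gene differed by -0.12. At 2-fold or more 16.1% were called, and 773 genes (6.75%) were higher and 1068 (9.33%) lower. Without scaling, that is on the deposited values, 12.8% of genes were called higher and 45.6% lower, with a median of -0.29. Every list below is to be read against the shares of its own setting.

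Several features of the arrays moved with the sides. Xist, the noncoding RNA of the inactive X chromosome, was at 10.86 and 10.75 at 12 h, against 4.95 and 4.91 with siRNA, while the Y-linked gene Uty was at 5.61 and 5.70, against 6.57 and 6.66. Untreated cells had 10.58 for Xist and 4.46 for Uty, so Xist was near the floor in the siRNA arrays only. The Y-linked genes Eif2s3y and Kdm5d were also called lower at 12 h, by 0.44 and 0.68. Eif2s3y was at 8.46 and 8.62 at 12 h, against 8.99 and 8.96, so its signal was well above the floor on both sides. Kdm5d was at 5.72 and 5.69, against 6.38 and 6.38. All 4 sex-linked genes tested, Xist among them, were above the untreated array in both 12 h arrays. Signal at the 3′ end over the 5′ end of Gapdh lay between -0.14 and 0.06 (log2) on all 4 arrays, and that of Actb was 0.51 and 0.46 at 12 h, against 0.23 and 0.16 with siRNA. Probe sets with no listed gene made up 39.3% of those at least 2-fold higher and 10.7% of those at least 2-fold lower, against 14.3% of those tested. Of 5212 genes with 2 or more probe sets tested, 553 (10.6%) had probe sets called in both directions. The part of these features in the results below was not tested.

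**Figure D1:**
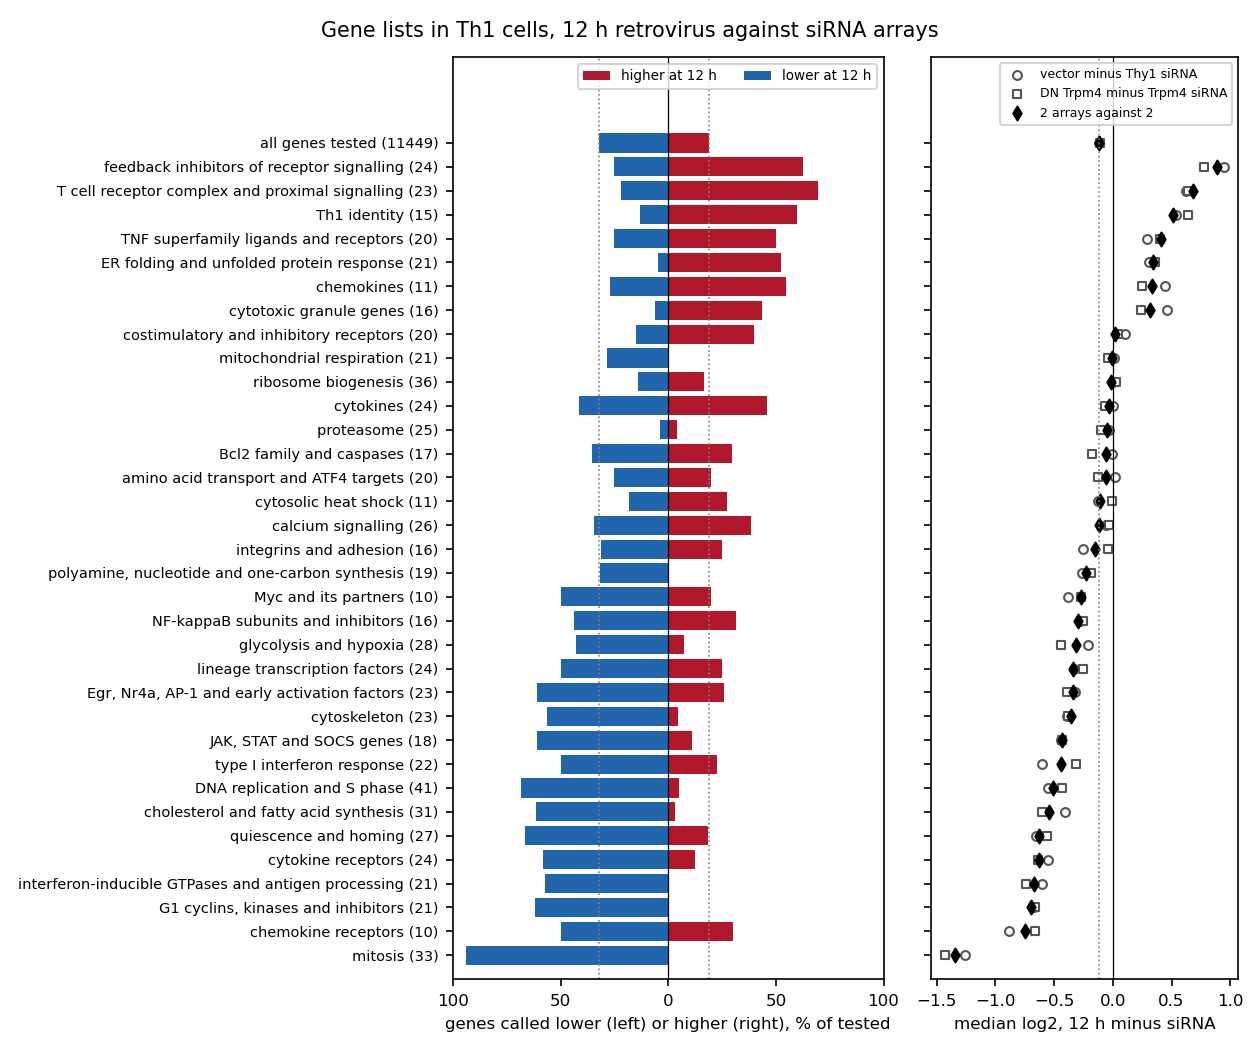
Gene lists with at least 10 members tested, ordered by their median difference, with the number tested in brackets and all genes at the top. Values are after quantile normalisation. The left panel shows the share of tested members called higher (red, right) or lower (blue, left) at 12 h, with dotted lines at the shares of all genes, 18.7% and 32.1%. The right panel shows the median log2 difference for 2 arrays against 2, and for each single pair of arrays. Feedback inhibitors stand at 0.89 and mitosis at -1.34.

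Cytokine transcripts split into 2 groups. Of 24 cytokine genes tested, 11 were called higher and 10 lower, with a median of -0.03, against 18.7% higher, 32.1% lower and a median of -0.12 for all genes. Without scaling 9 were higher and 11 lower, with a median of -0.34. Il2, the growth factor that T cells make on activation, had a log2 signal of 11.88 and 11.57 in the vector and DN Trpm4 arrays, against 8.40 and 9.08 with Thy1 and Trpm4 siRNA. It was 7.92-fold higher (log2 difference 2.99, standard error 0.24, adjusted p = 0.000379). Tnf, an inflammatory cytokine, had 12.37 and 12.18, against 9.48 and 9.46, and was 6.97-fold higher (2.80, standard error 0.11, adjusted p = 9.84e-05). In both genes the 12 h arrays stood well above the siRNA arrays and above the untreated array, which read 6.98 for Il2 and 8.83 for Tnf. Lta, the gene of lymphotoxin alpha, was 3.31-fold higher, and Csf1, a macrophage growth factor, 3.36-fold higher on the probe set quoted, with all 4 of its probe sets called. Il3, which drives blood cell progenitors, and Il1a were higher by 1.16 and 1.08, and the regulatory cytokine Il10 by 0.75.

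Several cytokines that were lower at 12 h were well above the untreated array in the siRNA arrays. Il9, a mast cell growth factor, had 5.16 and 5.22 at 12 h, against 9.00 and 9.09 with siRNA, and was called lower (-3.85, standard error 0.10, adjusted p = 5.36e-05). The untreated array read 5.85 for Il9, so the siRNA arrays were the high ones. Lif had 5.16 and 5.15, against 8.45 and 8.58, and Il6, another cytokine read through gp130, had 5.57 and 5.42, against 8.36 and 8.95. The differences were -3.36 and -3.16, and untreated cells had 5.43 and 4.46. Il24 had 8.96 and 9.03, against 11.21 and 11.46, with 4.89 in untreated cells, so both sides were above untreated cells and the siRNA side more so. Il13 and Il5, cytokines of Th2 cells, were lower by 1.63 and 1.24, while Il16 was lower by 1.54 and stood at 10.06 in untreated cells, above both sides. Il21, a helper cytokine for B cells, was lower by 0.96.

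The proximal promoters of the 2 cytokine genes that rose most are shown for the short motif GGAAA, the core that NFAT proteins bind, in capitals on either strand (TTTCC on the other). Each is the 250 bases before the transcription start in RefSeq on GRCm38.p6, 5′ to 3′ on the strand of the gene. Il2 lies at chr3:37125955-37126204 and Tnf at chr17:35202008-35202257, both on the minus strand.
Il2: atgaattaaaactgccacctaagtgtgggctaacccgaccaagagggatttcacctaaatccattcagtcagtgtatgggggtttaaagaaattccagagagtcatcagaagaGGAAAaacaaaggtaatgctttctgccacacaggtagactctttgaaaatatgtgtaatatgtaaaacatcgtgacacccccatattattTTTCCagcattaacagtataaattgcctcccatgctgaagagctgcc
Tnf: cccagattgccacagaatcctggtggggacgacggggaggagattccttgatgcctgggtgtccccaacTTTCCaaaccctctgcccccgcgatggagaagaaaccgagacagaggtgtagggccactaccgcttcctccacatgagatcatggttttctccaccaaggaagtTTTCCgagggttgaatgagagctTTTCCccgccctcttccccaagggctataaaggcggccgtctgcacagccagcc
The motif occurs 2 times in the Il2 window and 3 times in the Tnf window. It is a short and common one: 58.8% of 27025 genes with a window had it, and 19 of 20 cytokine genes with a window did, both those higher and those lower at 12 h. A match is a description of the letters and says nothing of binding in these cells.

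Ligands and receptors of the TNF superfamily split along similar lines. Of 20 tested, 10 were called higher and 5 lower, with a median of 0.41. Cd70, a costimulatory ligand, had 11.30 and 11.09 at 12 h, against 8.44 and 8.86 with siRNA, and was 5.82-fold higher (2.54, standard error 0.17, adjusted p = 0.000223). Tnfsf14, the ligand LIGHT, had 9.34 and 9.18, against 6.67 and 6.85, and was 5.65-fold higher. Both ligands were lower in untreated cells, at 5.66 and 4.75, than on either side. Tnfsf9, the ligand of 4-1BB, was 3.59-fold higher, Cd40lg, with which helper cells instruct B cells, 3.22-fold, the receptor Tnfrsf4 (OX40) 2.52-fold, and Fasl, the death ligand, 2.12-fold. Among the members called lower, Tnfrsf8 (CD30) had 5.59 and 5.70, against 7.79 and 8.28, and was 5.25-fold lower. The death receptor family member Tnfrsf25 was lower by 1.80 on the log2 scale and Fas by 0.97. In untreated cells these 3 receptors read 6.18, 4.65 and 5.98, closer to the 12 h arrays than to the siRNA arrays.

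**Figure D2:**
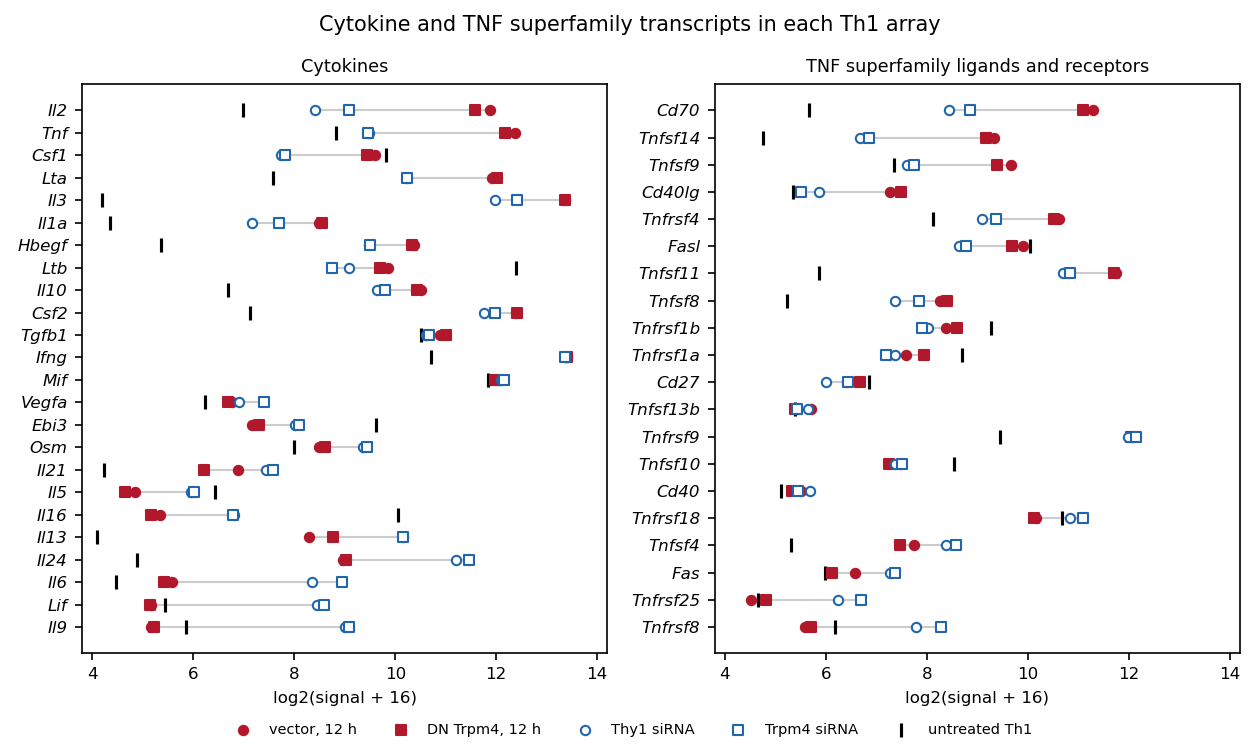
Log2 signal of every cytokine (left) and TNF superfamily member (right) tested, ordered by the difference between sides. Red filled symbols are the 12 h arrays (circle for vector, square for DN Trpm4), blue open symbols the siRNA arrays (circle for Thy1, square for Trpm4) and black ticks the untreated Th1 array. Il2 and Cd70 at the top have both 12 h arrays to the right, and Il9 and Tnfrsf8 at the bottom have both siRNA arrays to the right.

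Chemokine differences were smaller among the genes that were higher. Of 11 tested, 6 were called higher, none of them by 2-fold, and 3 lower. Xcl1 had 13.11 and 13.12, against 12.44 and 12.63, and Ccl4 had 13.06 and 13.10, against 12.47 and 12.57. These differences of 0.58 and 0.56 were no longer called on the deposited or median-centred values, and the list's median of 0.33 became 0.00 on the deposited values. Ccl20, which draws cells bearing CCR6, was higher by 0.99. Cxcl16 and the interferon-induced Cxcl10 were lower, with 4.77 and 4.77 against 7.53 and 7.19, and with 4.34 and 4.32 against 6.09 and 5.90. The differences were -2.59 and -1.67, and both lay close to the floor at 12 h.

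Components of the T cell receptor and of the signalling just below it were mostly higher at 12 h. Of 23 tested, 16 were called higher and 5 lower, with a median of 0.68. Without scaling 11 were called higher and 5 lower, and the median was 0.20. Fyn, a Src family kinase, had 10.84 and 10.83 at 12 h, against 9.11 and 9.20 with siRNA, and was 3.21-fold higher (1.68, standard error 0.10, adjusted p = 0.000166). The adaptor Lcp2 (SLP-76) had 11.57 and 11.59, against 10.34 and 10.38. It was 2.33-fold higher, and the kinase Zap70 was 2.30-fold higher on the probe set quoted, with no overlap between the sides on either. Another Zap70 probe set was not called (-0.01). The receptor chain Cd3e was 2.17-fold higher, with 10.63 and 10.63 against 9.55 and 9.48, although untreated cells read 11.48, above both sides. The scavenger-type receptors Cd5 and Cd6, which damp receptor signals, were 2.99-fold and 2.75-fold higher. Cd4, the coreceptor of helper cells, was 1.66-fold higher, and Lat 1.88-fold. The adaptors Sit1 and Grap2 were lower by 1.26 and 1.07.

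Feedback inhibitors of receptor signalling had the highest median of the lists with 10 or more members tested. Of 24 tested, 15 were called higher and 6 lower, 10 of them at least 2-fold higher and 1 at least 2-fold lower, with a median of 0.89. Spry1, an inhibitor of the Ras pathway, had 10.70 and 10.51, against 8.28 and 8.58, and was 4.52-fold higher (2.18, standard error 0.14, adjusted p = 0.00022). Rgs2 and Rgs16, which switch off G proteins, had 11.25 and 11.14 against 9.00 and 9.37, and 11.87 and 11.87 against 9.75 and 10.03. They were 4.02-fold and 3.96-fold higher, and all 3 probe sets of each were called. The MAP kinase phosphatases Dusp2 and Dusp6 were 3.46-fold and 3.05-fold higher, the adaptor Sla 3.56-fold and Spry2 2.42-fold. Of the other Sla probe sets, those at 1.26 and 1.79 were called and that at 0.13 was not. Cblb, a ubiquitin ligase that restrains T cells, was 1.84-fold higher on the probe set quoted, with all 3 probe sets called, and Tnfaip3 (A20) 1.93-fold. Against these, the phosphatase Dusp10 had 5.19 and 5.04, against 6.09 and 6.31, and was lower by 1.09.

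**Figure D3:**
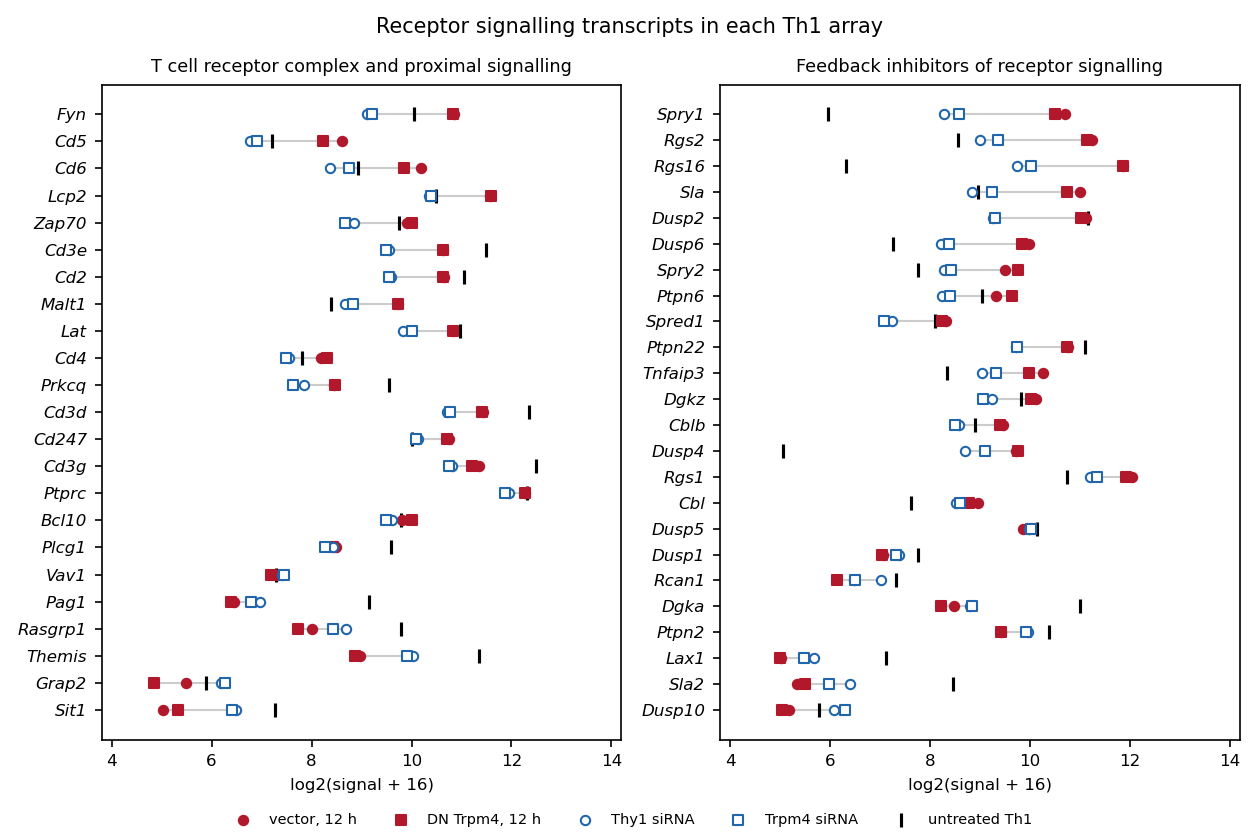
Log2 signal of every tested member of the T cell receptor list (left) and the feedback inhibitor list (right), ordered by the difference between sides, with the 12 h arrays in red, the siRNA arrays as open blue symbols and the untreated array as a black tick. Spry1, Rgs2 and Rgs16 lie at the top of the right panel with both 12 h arrays to the right of both siRNA arrays.

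Inhibitory and costimulatory receptors were split. Of 20 tested, 8 were called higher and 3 lower, each by 2-fold or more. On the deposited values, and also with median centring, 8 were called higher and 8 lower. Pdcd1 (PD-1), an inhibitory receptor of activated T cells, had 10.46 and 10.39 at 12 h, against 8.62 and 8.66 with siRNA, and was 3.44-fold higher (1.78, standard error 0.10, adjusted p = 0.000148). Lag3 and Havcr2 (TIM-3) were 2.39-fold and 2.38-fold higher, Vsir (VISTA) 2.52-fold, and the SLAM family members Slamf7 and Cd84 3.16-fold and 2.86-fold. Ctla4, an inhibitory receptor that competes for the ligands of CD28, went the other way, with 8.0 and 7.92 against 9.27 and 9.65, and was 2.83-fold lower. Entpd1 (CD39) and Cd274 (PD-L1) were 2.15-fold and 2.01-fold lower. Among inhibitory receptors, then, Pdcd1, Lag3 and Havcr2 were higher at 12 h and Ctla4 lower.

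Early activation factors were lower more often than higher. Of 23 tested, 6 were called higher and 14 lower, with a median of -0.34. On the deposited values 4 were called higher and 14 lower, and the median was -0.84. Egr2, a zinc finger factor induced through NFAT, had 11.33 and 11.13 at 12 h, against 9.5 in each siRNA array and 5.67 in untreated cells, and was 3.32-fold higher (1.73, standard error 0.11, adjusted p = 0.000207). Fosl1, a partner of Jun proteins, was 2.35-fold higher. Nr4a3, an orphan nuclear receptor induced by receptor signals, was 2.86-fold higher on the probe set quoted, while another of its 3 probe sets was called lower. The AP-1 genes Junb, Jun, Batf and Batf3 were lower, with Junb at 9.25 and 9.42 against 11.08 and 11.12 and Batf at 7.56 and 7.65 against 9.33 and 9.38. The differences were -1.77 for Junb, -1.75 for Batf, -1.49 for Jun and -1.44 for Batf3. Cd69, a surface marker of recent activation, was 2.21-fold lower, with 7.62 and 7.73 against 8.80 and 8.84. So the AP-1 members of this list did not move together: Fosl1 was higher, like Egr2, while Junb, Jun, Batf and Batf3 were lower.

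NF-kappaB genes and calcium signalling genes went both ways. Nfkbid, an atypical inhibitor of the family that is induced by receptor signals, had 10.04 and 9.67, against 7.95 and 7.94, and was 3.77-fold higher. The subunits Rel and Relb were higher by 0.79 and 0.63, and Traf1, Bcl3 and the inhibitor Nfkbia lower by 1.36, 0.81 and 0.75. The other Traf1 probe set was not called (-0.24). Of the other Nfkbia probe sets, those at -0.25 and -0.16 were not called and those at -0.64 and -0.47 were. Over the 16 genes tested 5 were called higher and 7 lower, and the median of -0.30 became 0.30 when only probe sets with the plain suffix were used. Of 26 calcium signalling genes, 10 were called higher and 9 lower, with a median of -0.12, the same as all genes. Nfatc1, the NFAT gene that receptor signals induce, had 10.01 and 9.99 at 12 h, against 7.65 and 7.86 with siRNA, and was 4.74-fold higher (2.24, standard error 0.11, adjusted p = 0.000129), with all 5 probe sets called. Kcna3, the potassium channel that keeps the membrane voltage negative for calcium entry, was 2.72-fold higher. Itpr2, a calcium release channel of the endoplasmic reticulum, was 2.28-fold higher on the probe set quoted. Of its other probe sets, 1 was called higher (1.01), and those at -0.02 and 0.05 were not called. Camk2d, a calmodulin-dependent kinase, was 2.11-fold higher with all 6 probe sets called. Nfatc2, the NFAT form already present in resting T cells, was 1.94-fold lower on the probe set quoted. Its other probe sets were not called (-0.22, -0.29 and -0.49). The calcineurin subunits Ppp3cc and Ppp3ca were 2.33-fold and 2.23-fold lower. The channel Trpm2, a relative of Trpm4, had 4.99 and 4.84, against 6.77 and 6.58, and was called lower by 1.76 on 1 probe set, while the other was not called (0.42).

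Receptors through which Th1 cells hear cytokines were mostly lower at 12 h. Of 24 cytokine receptor genes, 14 were called lower and 3 higher, with a median of -0.63. Il2ra (CD25), the high affinity chain for interleukin 2, had 10.14 and 10.27 at 12 h, against 11.45 and 11.52 with siRNA, and was 2.43-fold lower (-1.28, standard error 0.10, adjusted p = 0.000362), although Il2 itself was higher. Il2rb was 1.82-fold lower, the interferon gamma receptor chain Ifngr1 2.20-fold, Il4ra 2.09-fold, Il21r 2.48-fold and Il27ra 2.71-fold. Tgfbr3, a coreceptor for TGF-beta, was 3.69-fold lower on the probe set quoted, with the other of its 2 probe sets not called. The decoy receptor Il1r2 was the exception at 2-fold or more, with 9.57 and 9.38 against 6.88 and 7.07, and was 5.63-fold higher. Below the receptors, Socs3, a feedback inhibitor of gp130 signalling, had 6.88 and 6.99, against 8.87 and 9.06, and was 4.07-fold lower on the probe set quoted, with all 3 called. The kinase Pim1 was 2.42-fold lower. Of 18 JAK, STAT and SOCS genes, 11 were called lower and 2 higher, with a median of -0.43, which was -0.84 on the deposited values.

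Lineage factors included both directions. Of 24 tested, 6 were called higher and 12 lower. Runx3, which works with the product of Tbx21 at the gene of interferon gamma, had 6.94 and 6.82 at 12 h, against 9.37 and 9.36 with siRNA and 10.07 in untreated cells, and was 5.59-fold lower (-2.48, standard error 0.10, adjusted p = 0.0001) on 1 of 2 probe sets, the other not being called. Hlx, another partner of Tbx21, was lower by 1.81 on the log2 scale, Irf1, an interferon-induced factor, by 1.60, and Lef1, of the Wnt pathway, by 1.53. Rora was 2.20-fold lower, with 7 of 8 probe sets called lower. The Ikaros family member Ikzf3 and the repressor Bach2 were 3.05-fold and 2.71-fold higher, with all 3 probe sets of Bach2 called. Thus Tbx21 was higher while Runx3 and Hlx were lower.

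Genes of resting and recirculating T cells were mostly lower at 12 h. Of 27 tested, 18 were called lower and 5 higher, with a median of -0.63. Ccr7, which guides T cells into lymph nodes, had 5.84 and 5.93 at 12 h, against 9.59 and 9.81 with siRNA, and was 14.1-fold lower (-3.82, standard error 0.12, adjusted p = 7.83e-05). Untreated cells read 5.91, so only the siRNA arrays were high. S1pr1, which lets T cells leave lymph nodes, had 5.66 and 5.61, against 7.28 and 7.85, and was lower by 1.93 on the log2 scale, with 9.99 in untreated cells. Satb1, a chromatin organiser, was 4.46-fold lower with 4 of 5 probe sets called, and the cell cycle inhibitor Cdkn1b 2.54-fold lower. The antiproliferative gene Btg1 was 2.99-fold higher, and Foxp1, a keeper of T cell quiescence, 1.92-fold with all 8 probe sets called, so the list was not uniform. The list's median difference from the untreated array was -2.1 at 12 h and -1.62 with siRNA, beside 0.04 and 0.15 for all genes.

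Genes of migration and adhesion were read next. Of 10 chemokine receptors tested, 5 were called lower and 3 higher, with a median of -0.75. Ccr4 had 5.19 and 5.22, against 7.90 and 8.13, and was lower by 2.81, with 4.90 in untreated cells. Cxcr4 and Ccr2 were lower by 1.61 and 1.12, while Cxcr3, the receptor characteristic of Th1 cells, was 1.83-fold higher with 7.93 and 7.65 against 6.99 and 6.85. Itga4, the integrin chain of VLA-4, had 6.42 and 6.27, against 8.95 and 8.90, and was 5.99-fold lower with all 4 probe sets called. Of 16 integrin and adhesion genes, 5 were called lower (31.2%) and 4 higher (25.0%), against 32.1% and 18.7% of all genes. Their median was -0.15, near the -0.12 of all genes. Cytotoxic granule genes differed less: 7 of 16 were called higher and 1 lower. The perforin gene Prf1 was 1.91-fold higher, Ctsw 2.19-fold and Crtam 2.20-fold. Gzmb, granzyme B, was at 13.33 and 13.33 at 12 h, against 13.33 and 13.39 with siRNA, close to the top of the range. The cytotoxic list's median of 0.32 turned to -0.13 on the deposited values and -0.12 with median centring.

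Transcripts that interferons induce were mostly lower at 12 h, while Ifng was not called. Of 21 genes of interferon-inducible GTPases and antigen processing, 12 were called lower and 0 higher, with a median of -0.67. Igtp, a GTPase of cell-autonomous defence, had 8.44 and 8.63 at 12 h, against 10.39 and 10.19 with siRNA and 11.36 in untreated cells, and was 3.37-fold lower (-1.75, standard error 0.12, adjusted p = 0.000265). Gbp6 and Irgm2 were lower by 1.88 and 1.85, and the immunoproteasome gene Psmb10 by 1.07. The median difference of these 21 genes from the untreated array was -1.76 at 12 h and -1.07 with siRNA, beside 0.04 and 0.15 for all genes. Of 22 genes of the type I interferon response, 11 were called lower and 5 higher, with a median of -0.44. Oas3 was lower by 2.29 and Bst2 by 1.05, while Ifi27l2a had 9.14 and 9.29 against 6.79 and 6.78 and was 5.38-fold higher. Ifit3 and the RNA sensor gene Ifih1 were higher by 1.67 and 1.25.

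Mitosis genes had the lowest median of the lists with 10 or more members tested. Of 33 tested, 31 were called lower, 27 of them at least 2-fold, and 0 higher, with a median of -1.34. Nusap1, a spindle protein, had 6.88 and 6.52 at 12 h, against 9.05 and 9.09 with siRNA, and was 5.17-fold lower (-2.37, standard error 0.14, adjusted p = 0.000181). Ccna2, the cyclin of S phase and G2, had 8.16 and 7.88, against 9.97 and 9.87, and was 3.75-fold lower. The spindle motor Kif11 had 6.18 and 5.93, against 7.91 and 7.81, and was 3.50-fold lower with all 3 probe sets called. In these genes and in the other members called, both 12 h arrays were below both siRNA arrays. How many of all genes lay apart in this way was not counted. The checkpoint kinase Bub1 was 3.41-fold lower, Aurkb, of the chromosomal passenger complex, 3.12-fold, Plk1 2.46-fold, and the proliferation marker Mki67 2.17-fold. Cdk1, the kinase that drives entry into mitosis, was 1.99-fold lower. The 2 members not called were Cdc20, the activator of the anaphase-promoting complex, with 9.52 and 9.30 against 9.34 and 9.22 on the probe set quoted and another called higher by 2.01, and Cenpa, the centromere histone, with 7.90 and 7.35 against 7.67 and 7.67. The median difference of the 33 genes from the untreated array was -1.34 at 12 h and 0.18 with siRNA, beside 0.04 and 0.15 for all genes. Within the 12 h side, DN Trpm4 was below the vector in 32 of 33. On the siRNA side, the Trpm4 siRNA array was below the Thy1 siRNA array in 25 of 33. Each count rests on a single pair of arrays, and the matching share of all genes was not counted. Whether Trpm4 had a part in either was not tested.

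**Figure D4:**
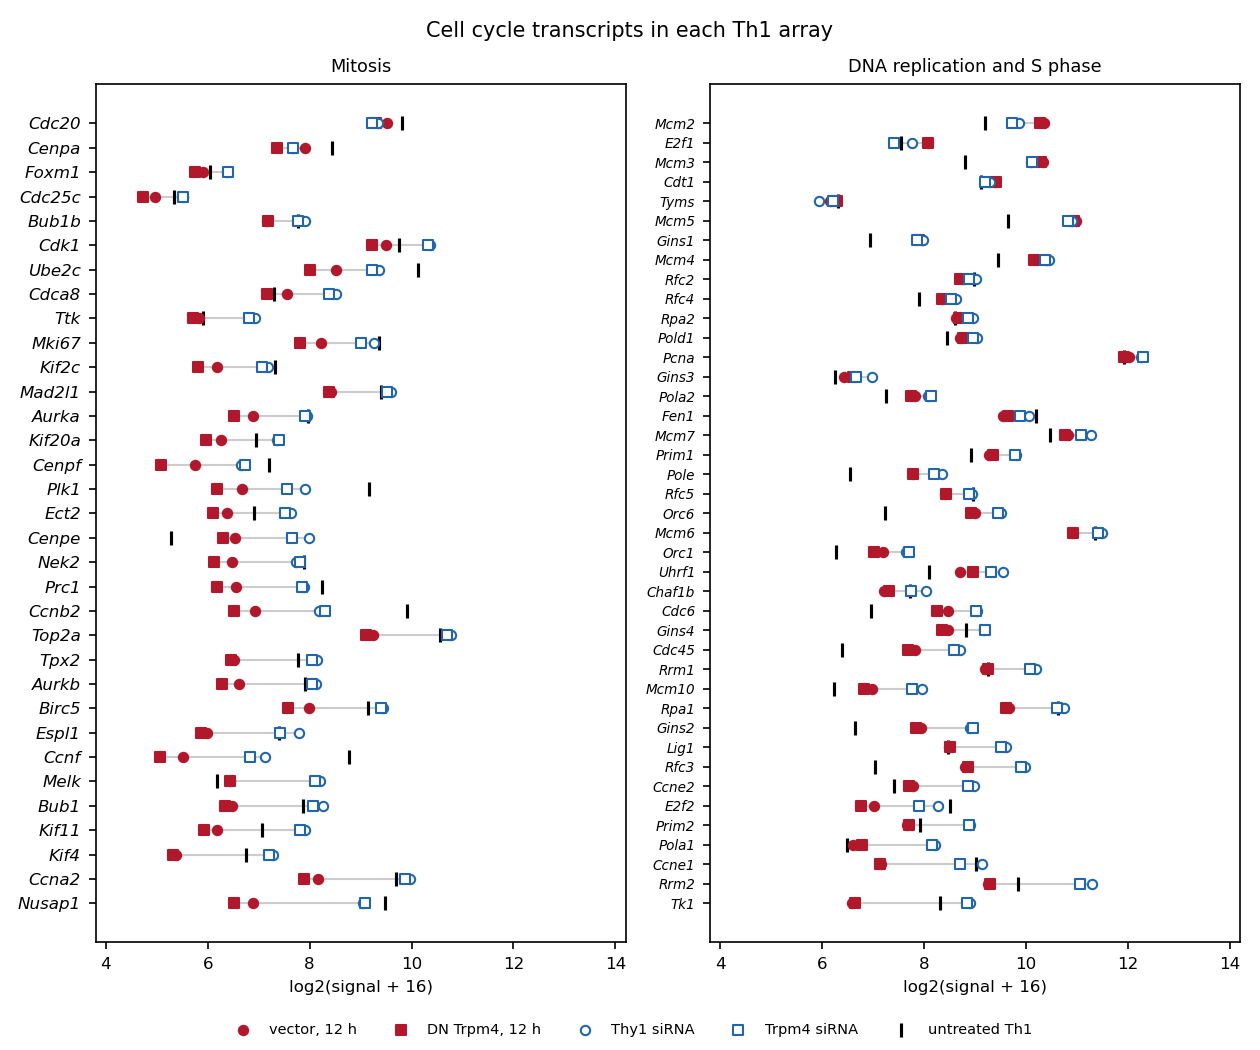
Log2 signal of every tested mitosis gene (left) and DNA replication gene (right), ordered by the difference between sides, with the 12 h arrays in red, the siRNA arrays as open blue symbols and the untreated array as a black tick. In the left panel the red symbols lie to the left of the blue ones for all members but Cdc20 and Cenpa. In the right panel the sides are close at the top and separate toward Tk1.

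Genes of DNA replication were lower too, by less. Of 41 tested, 28 were called lower and 2 higher, 11 at least 2-fold lower and 0 at least 2-fold higher, with a median of -0.51. Without scaling 35 were called lower and 0 higher, with a median of -0.85. Tk1, the thymidine kinase of S phase, had 6.58 and 6.64 at 12 h, against 8.90 and 8.84 with siRNA, and was 4.79-fold lower (-2.26, standard error 0.10, adjusted p = 0.000103). Rrm2, a subunit of ribonucleotide reductase, was 3.75-fold lower with all 3 probe sets called, Ccne1, cyclin E, 3.42-fold, and the polymerase subunit Pola1 2.80-fold. Replication genes differed from untreated cells by medians of 0.28 at 12 h and 0.86 with siRNA, against -1.34 and 0.18 for mitosis genes. Of 21 G1 cyclins, kinases and inhibitors, 13 were called lower and 0 higher, with a median of -0.70. Both cyclin and inhibitor genes were among them: Ccnd3 was lower by 1.46, Cdkn1a (p21) by 1.27, Cdkn2d by 2.43 and Cdkn2a, with 4.63 and 4.46 against 7.68 and 6.60, by 2.59. The other Ccnd3 probe set was not called (0.14).

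The 250 bases before the start of 4 mitosis genes are shown for 2 motifs that cell cycle promoters carry, CCAAT and TTTGAA, in capitals (ATTGG and TTCAAA on the other strand, both motifs being able to share an end base). Nusap1 and the pair Ccnb2 and Cdk1 were called lower, and Cdc20 was not called on the probe set quoted. The sequences are RefSeq's on GRCm38.p6, 5′ to 3′ on the strand of the gene. Nusap1 lies at chr2:119618048-119618297 on the plus strand, and Ccnb2 at chr9:70421555-70421804, Cdk1 at chr10:69352913-69353162 and Cdc20 at chr4:118437344-118437593 on the minus strand.
Nusap1: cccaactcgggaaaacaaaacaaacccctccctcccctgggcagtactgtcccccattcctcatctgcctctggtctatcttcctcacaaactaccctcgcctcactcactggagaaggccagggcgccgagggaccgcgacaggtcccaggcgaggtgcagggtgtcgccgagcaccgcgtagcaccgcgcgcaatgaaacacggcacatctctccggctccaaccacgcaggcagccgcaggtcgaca
Ccnb2: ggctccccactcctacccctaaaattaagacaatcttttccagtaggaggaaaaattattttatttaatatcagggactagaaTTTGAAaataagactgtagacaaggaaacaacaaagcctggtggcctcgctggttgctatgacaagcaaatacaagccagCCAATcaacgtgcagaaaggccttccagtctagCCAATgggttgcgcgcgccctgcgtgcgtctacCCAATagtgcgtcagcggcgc
Cdk1: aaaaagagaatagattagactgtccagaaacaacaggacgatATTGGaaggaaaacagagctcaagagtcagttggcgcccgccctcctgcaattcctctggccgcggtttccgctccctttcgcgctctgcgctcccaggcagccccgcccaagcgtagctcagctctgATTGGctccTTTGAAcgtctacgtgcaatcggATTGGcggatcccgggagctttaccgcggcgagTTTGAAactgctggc
Cdc20: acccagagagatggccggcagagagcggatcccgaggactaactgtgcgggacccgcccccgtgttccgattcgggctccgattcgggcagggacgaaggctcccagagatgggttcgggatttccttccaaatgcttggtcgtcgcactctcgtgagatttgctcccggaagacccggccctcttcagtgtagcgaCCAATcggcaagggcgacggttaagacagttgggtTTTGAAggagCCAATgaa
Ccnb2, which encodes cyclin B2, has CCAAT 3 times and TTTGAA once, and its transcript was 2.88-fold lower at 12 h, with 6.92 and 6.51 against 8.18 and 8.30. Cdc20 has both motifs and was not called on the probe set quoted, and Nusap1, the member with the largest difference, has neither in this window. Of 27 mitosis genes with a window, 22 (81.5%) had CCAAT and 12 (44.4%) TTTGAA, against 37.5% and 18.3% of all 27025 genes with a window. Of 33 replication genes with a window, 60.6% had CCAAT and 15.2% TTTGAA.

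Transcripts of lipid synthesis were mostly lower at 12 h. Of 31 cholesterol and fatty acid genes, 19 were called lower and 1 higher, with a median of -0.54. Scd1, a fatty acid desaturase, had 4.66 and 4.83 at 12 h, against 7.48 and 7.35 with siRNA, and was called lower (-2.67, standard error 0.11, adjusted p = 0.000103), and Scd2 was 2.57-fold lower with all 3 probe sets called. Mvd, of the mevalonate pathway, was lower by 1.95, the elongase Elovl6 by 1.41 and Dhcr7, of the last steps to cholesterol, by 1.30. Of 28 glycolysis and hypoxia genes, 12 were called lower (42.9%), 2 higher and 14 not called, with a median of -0.31. Without scaling 20 were called lower, with a median of -0.68. The lactate exporter Slc16a3 had 7.11 and 6.81, against 8.69 and 9.36, and was 4.18-fold lower, while hexokinase 2 (Hk2) was 2.41-fold, Bnip3 2.96-fold and Pdk1 2.18-fold lower. Ndrg1, also induced by hypoxia, was 2.47-fold higher with all 5 probe sets called. Ddit4, an inhibitor of the mTOR kinase induced by hypoxia and other stress, had 6.23 and 5.76 at 12 h, against 10.21 and 10.43 with siRNA and 11.09 in untreated cells, and was called lower (-4.32, standard error 0.18, adjusted p = 0.000102).

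What transcripts of cell growth showed depended on the scaling. Of 36 ribosome biogenesis genes, 6 were called higher and 5 lower after quantile normalisation, with a median of -0.02. On the deposited values 2 were called higher and 21 lower, with a median of -0.37. After quantile normalisation their median difference from the untreated array was 1.25 at 12 h and 1.22 with siRNA, beside 0.04 and 0.15 for all genes. Of 25 proteasome genes, 1 was called in each direction after quantile normalisation, with a median of -0.05, against 21 lower and 0 higher on the deposited values, with a median of -0.51. The median difference of proteasome genes from the untreated array was 0.81 at 12 h and 0.8 with siRNA after quantile normalisation. The same untreated array entered both. Of 20 amino acid transport genes 4 were called higher and 5 lower, of 19 genes of polyamine, nucleotide and one-carbon synthesis 0 higher and 6 lower, and of 21 genes of mitochondrial respiration 0 higher and 6 lower. On the deposited values 10, 14 and 16 genes of these lists were called lower, with medians of -0.32, -0.58 and -0.45. Of genes of the endoplasmic reticulum, 11 of 21 were called higher and 1 lower, although their median of 0.34 turned to -0.07 on the deposited values and -0.05 with median centring. Dnajb9, a cochaperone of the unfolded protein response, had 9.87 and 9.86, against 8.49 and 8.52, and was 2.58-fold higher, and Herpud1 and Syvn1, of the degradation of misfolded proteins, were 2.36-fold and 2.25-fold higher. Of 23 cytoskeleton genes 13 were called lower and 1 higher, with Stmn1, a microtubule destabiliser, 1.72 lower on the log2 scale with both of its probe sets called.

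Survival and death genes went both ways, with 5 of 17 called higher and 6 lower. Bcl2l11 (BIM), a death-promoting protein, had 8.34 and 8.17 at 12 h, against 6.98 and 6.92 with siRNA, and was 2.47-fold higher with all 5 probe sets called. Bbc3 (PUMA), another death-promoting member, had 4.81 and 4.52, against 6.56 and 6.21, and was lower by 1.72. Of 11 cytosolic heat shock genes 3 were called higher and 2 lower, and of 10 genes of Myc and its partners 2 higher and 5 lower.

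The probe sets with the largest differences were often contradicted by other probe sets of the same gene. Of the 15 genes ranked highest, 10 were read on probe sets whose suffix marks possible cross-hybridisation, and 7 of the 12 with another probe set tested had one called the opposite way. Tmem44, with no other probe set tested, led, with 11.71 and 11.76 at 12 h, against 4.17 and 4.09 with siRNA, and was also at the floor in untreated cells and at 4 h. Mycn was 5.40 higher on 1 probe set, with 11.72 and 11.33 against 6.22 and 6.03, while its other probe sets were lower by 2.23 and 1.92. In 9 of these 15 genes all 8 retrovirus arrays of the series, Th1 and Th2, stood above all 6 others. Of the 15 genes ranked lowest, 7 had all retrovirus arrays below all others, and 3 of the 9 with another probe set had one called the opposite way. Rpl39, a ribosomal protein gene with 1 probe set, had 4.46 and 4.70 at 12 h, against 11.97 and 12.04 with siRNA and 12.37 in untreated cells. Over all probe sets at least 2-fold higher, 53.3% had every retrovirus array of the series above every other array. Of those at least 2-fold lower, 30.3% had every retrovirus array below. All these probe sets were chosen for a difference between the arrays compared, which are among those counted. The matching share of all probe sets tested was not counted. Gapdh signal at the 3′ end over the 5′ end was 5.80 and 5.98 (log2) in the Th1 4 h arrays. It was 5.64 and 5.88 in the Th2 12 h arrays, and its part in these counts was not tested.

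**Figure D5:**
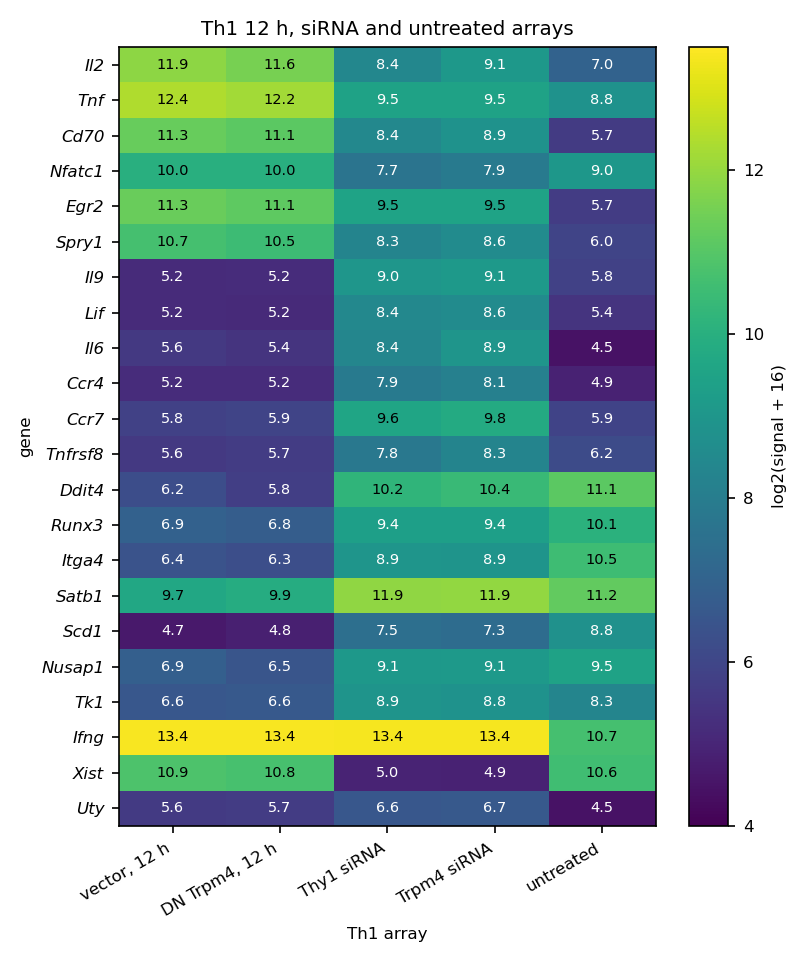
Log2 signal of 22 genes (rows) in the 12 h arrays, the siRNA arrays and the untreated Th1 array (columns), written in each cell and coloured from dark (low) to yellow (high). Il9, Lif, Il6, Ccr4, Ccr7 and Tnfrsf8 are high in the siRNA arrays alone, while Ddit4, Runx3, Itga4 and Scd1 are low in the 12 h arrays alone. Xist is low in the siRNA arrays alone.

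Of the 5212 genes with 2 or more probe sets tested, 390 had all of them called higher and 697 all called lower. Of 2275 genes with 3 or more probe sets tested, 21 had all of them called at least 2-fold higher and 28 at least 2-fold lower, a selection made after the values were seen. The higher ones included Xist, the imprinted noncoding RNAs Kcnq1ot1 and Airn with medians of 2.70 and 2.46, the scavenger receptor Cd36 at 2.14 and the factor Pou2f2 at 2.43. The lower ones included Rrm2, Kif11 and Socs3, the deoxycytidine kinase Dck at -2.16, and the passenger complex genes Cdca8 and Incenp at -1.25 and -1.20.

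Summed signal of the marker lists of other cells was far below that of the Th1 markers, although single members were not low. The lists differ in length and in the brightness of their members. The Th1 list holds Ifng and Gzmb, near the top of the range, and general T cell genes such as Cd3e. The sums therefore do not measure how many cells of each kind were present. Of 10 B cell markers on the array, 6 were below the median of all 4 arrays, Cd79a, Cd79b and Ms4a1 among them, and their summed signal was 540 and 447 at 12 h, against 405 and 395 with siRNA. Ebf1, an early B cell factor, had 8.44 and 8.28, against 6.16 and 6.62, and was called higher by 1.97 on the probe set quoted. Another of its probe sets was called higher by 0.47, and those at 0.43 and -0.23 were not called. Ighm, the antibody heavy chain, was called lower by 2.46 on the probe set quoted and higher by 0.83 on another. Lum, of connective tissue, named after its values were seen, had 8.08 and 8.45, against 8.16 and 8.46, and was not called. Summed signal of macrophage and dendritic cell markers was 293 and 249, against 354 and 338, of markers of killer cells (CD8 T and natural killer) 154 and 196, against 285 and 273, and of fibroblast markers 449 and 503, against 510 and 520. Treg and Th17 markers summed to 149 and 164, against 271 and 286, and erythroid markers to 87 and 99, against 83 and 90. Th2 markers summed to 568 and 737, against 1615 and 1531, with Il13 at 8.30 and 8.76, against 10.16 and 10.16. The part of other cells in the differences was not tested, and fewer cells of a kind cannot be told apart from less RNA per cell.

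The list medians were also taken in single pairs of arrays, control with control and Trpm4-inhibited with Trpm4-inhibited. Mitosis genes had a median of -1.26 for vector minus Thy1 siRNA and -1.43 for DN Trpm4 minus Trpm4 siRNA. Feedback inhibitors had 0.95 and 0.78, genes of the T cell receptor list 0.62 and 0.64, and cytokine receptors -0.55 and -0.64 in the same order. These are single pairs of arrays, with no test.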

How the data were processed

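Total RNA of 14 mouse T helper cell samples was hybridised to Affymetrix arrays, 1 array a condition, per the labels. The deposited values are intensity per probe set, not logged. The sources used here do not say by what method they were summarised or scaled. Of 45101 probe sets, 64 controls were left out, and 34958 had 1 gene, 932 several and 9211 none in the platform annotation.

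From the deposited values, log2(value + 16) was computed after quantile normalisation across all 14 arrays. Probe sets above the array median in at least 2 of the 4 arrays (24572) were tested in limma 3.58.1 (lmFit, then eBayes; R 4.3.3), 2 arrays against 2, with 2 residual degrees of freedom and a prior of 3.61. P-values were Benjamini-Hochberg adjusted, with a threshold of 0.05. Precision is limited by the number of arrays, since no condition has a second one.

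Named were the 15 largest called differences in each direction (given as counts and a few examples), up to 6 called members a direction of each gene list, members that define a list, and the label checks. The arrays and lists were chosen with earlier results of these data known. The fit was tested on simulated data.

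Alternatives were the deposited, median-centred and 4-array quantile values, pseudocounts, filters, eBayes options, a Trpm4 block, a shared spread, 1 probe set per gene and arrays left out. Gene means over probe sets, probe sets with the plain suffix and the spread of the 7 Th1 arrays were added after seeing the data.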

Additional observations from a re-analysis of the deposited data

Results flagged for a closer look

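Mitosis genes had medians of opposite sign in the 2 cell types: the difference, 12 h retrovirus minus siRNA, was -1.34 in Th1 cells and 1.41 in Th2 cells. The median member was at 6.56 and 6.33 in the Th1 12 h arrays, against 7.95 and 7.85 in the Th1 siRNA arrays, and at 8.01 and 8.18 in the Th2 12 h arrays, against 6.56 and 6.69 in the Th2 siRNA arrays. The difference between the cell types was not tested. Other lists also had medians of opposite sign, given here for Th1 and then Th2 cells. Feedback inhibitors had 0.89 and -0.34, the T cell receptor list 0.68 and -0.49, Th1 markers 0.51 and -0.30, and DNA replication -0.51 and 0.45. Chemokines had 0.33 and -1.48, cytotoxic granule genes 0.32 and -1.42, the TNF superfamily 0.41 and -0.69, and glycolysis and hypoxia -0.31 and 0.49. The lists named are not all of those with opposite signs. Gapdh signal at the 3′ end over the 5′ end was 5.64 and 5.88 (log2) in the Th2 12 h arrays, against -0.15 and -0.14 in the Th2 siRNA arrays. It lay between -0.14 and 0.06 on the 4 Th1 arrays. The sides thus differed in this 3′ signal in Th2 cells only, so it cannot be told apart from cell type in these opposite signs.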

How the results depend on the processing

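Counts of probe sets called stayed within 1.5 times in the settings not given here. The counts with a filter at the 75th percentile were 3525 higher and 4029 lower, 1193 and 860 at 2-fold or more, with 12346 probe sets tested. With 1 probe set per gene they were 2261 and 3847, 773 and 1068 at 2-fold or more, and with the mean of all probe sets of a gene 2508 and 4012, 735 and 1021, over 11449 genes. A pseudocount of 64 left 1045 and 632 at 2-fold or more. Leaving out 1 array gave 4627 to 5698 higher and 4998 to 5897 lower, 2603 to 2840 and 1995 to 2108 at 2-fold or more. The lone array of a side was then assumed to vary like the other side. With Trpm4 inhibition as a replicate block the counts were 5860 and 6474. The array numbers pair conditions by Trpm4 inhibition only. Of all calls, 34.2% were higher on the deposited values and 35.5% with median centring, against 47.2%. Differences that changed sign were those of Cdc20 (-0.19 deposited, -0.18 median-centred), Ifng (-0.06 and -0.04), Thy1 (-0.17 and -0.16, and from -0.42 without the Thy1 siRNA array to 0.91 without the Trpm4 siRNA array), Cenpa (0.24 without the DN Trpm4 array, -0.32 without the vector array) and Lum (-0.23 to 0.14 with 1 array left out), none of them called in the fit reported. Beside the lists given with both scalings above, the deposited values lowered the median of integrins to -0.34, of calcium genes to -0.24, of survival genes to -0.33, of NF-kappaB genes to -0.51 and of cytoskeleton genes to -0.69, while that of mitosis was -1.52 and of feedback inhibitors 0.63. The median of cytokines was 0.32 and of calcium genes 0.08 with the 75th percentile filter, and that of costimulatory and inhibitory receptors -0.07 on the deposited values. The cause was not tested. Values near the floor of 4 limit what dim probe sets can show.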
